A study of Mus musculus with 6 samples.

Results

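Long intergenic noncoding RNAs (lincRNAs) are transcripts made from DNA between protein-coding genes and not translated into a known protein. The lincRNAs described here were the entries of a gene count table with the biotype lincRNA, on chromosomes 1 to 19, with a mean of at least 100 raw counts over all 6 libraries. The rule also left out 10 well-known names (Malat1, Neat1, Meg3, Rian, Mirg, Miat, Snhg11, Peg13, Pantr1 and Gas5). It kept 109 of 5386 lincRNA entries, in a table of 54040 entries in all. Of the lincRNA entries, 2438 had any count and 118 reached the mean count, of which 4 lay on other chromosomes and 5 were among the named exclusions. The lincRNAs were thus chosen by their mean count, so their abundance is given as a description only, whereas the difference between the groups played no part in the rule. Just inside the threshold lay Gm28151 at a mean of 101.3 counts, Gm10010 at 101.5 and 1700047M11Rik at 103.0. Just outside it lay Gm17354 at 99.7 counts, C030037D09Rik at 96.7 and 4932422M17Rik at 96.0.

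The libraries came from dentate gyrus, the hippocampal region whose main neurons are granule cells, of C57BL/6 mice at postnatal day 40. The labels give 3 cKO libraries, from tissue deficient in YTHDF2, and 3 Ctrl libraries, from negative control tissue. The alleles, the Cre driver, the genotype of the controls and the number of animals behind each library were not given in the sources used here. As a result, p-values measure the spread between these libraries, which may be technical. The labels name granule cells as the cell type and mention no cell sorting.

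YTHDF2 is a cytoplasmic protein that binds N6-methyladenosine (m6A), a common internal mark of messenger and long noncoding RNA, and brings the marked RNA to the deadenylation and decay machinery. lincRNAs are a mixed class. Some are the long precursors from which microRNAs are cut, some carry small nucleolar RNAs in their introns, some act as RNA molecules that bind proteins or microRNAs, and most have no assigned function. A microRNA host transcript is cut by the nuclear Microprocessor complex, and the excised hairpin becomes the mature microRNA that pairs with target messages through its seed.

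The gene label held for most of the 109 entries. GENCODE M21, on the same genome build, lists 104 of them as lincRNA. RefSeq (GRCm38.p6) held an entry for 72 and lists 62 as lncRNA, 7 as protein-coding and 3 as pseudogenes. Among the 7 are 6330403K07Rik, Dbpht2 and Tmem250-ps, and the 3 pseudogenes include Gm10076. The word intergenic held less well, since the span of 19 of the 109 overlapped a protein-coding gene, 12 of them on the opposite strand and 7 on the same strand. Only 50 overlapped no other entry of the table. The sources used here give no strand setting for the counting. Reads of a lincRNA and of a gene that overlaps it therefore cannot be told apart. Of the 109 names, 46 begin with Gm and 43 end in Rik, the forms given to loci with no functional name.

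Gm20754 overlapped Gm24544, a microRNA entry without a Mir name, on the same strand and was not counted as a host. The span of 12 other lincRNAs overlapped a microRNA gene with a Mir name on the same strand. The sequences below, from RefSeq (GRCm38.p6), are mature microRNAs of these loci, 5′ to 3′, with the seed (bases 2 to 8) in capitals, and they are shown because all 12 hosts had positive fold changes in the comparison. miR-9 occurs at 3 of the loci with the same sequence and seed, inside Gm3764 (Mir9-1), C130071C03Rik (Mir9-2) and Mir9-3hg (Mir9-3). There miR-9-5p lies at chr3:88215613-88215635, chr13:83738821-83738843 and chr7:79505279-79505301, all on the plus strand. The others, in the order listed, lie inside C78859, Snhg20, E130102H24Rik, 6720427I07Rik, 4833445I07Rik (which holds both miR-191 and miR-425) and 2900076A07Rik. Of these, miR-138-5p lies at chr8:94324312-94324334 and miR-6516-5p at chr11:117077370-117077391, both on the plus strand.
miR-9-5p: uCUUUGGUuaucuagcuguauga
miR-9-3p: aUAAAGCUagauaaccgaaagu
miR-138-5p: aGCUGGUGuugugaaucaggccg
miR-6516-5p: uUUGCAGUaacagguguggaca
miR-101a-3p: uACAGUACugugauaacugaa
let-7d-5p: aGAGGUAGuagguugcauaguu
miR-191-5p: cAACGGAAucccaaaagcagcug
miR-425-5p: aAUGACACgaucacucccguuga
miR-1839-5p: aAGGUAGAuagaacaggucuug

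The 3 remaining hosts, Mir124a-1hg, Mir124-2hg and Gm27032, overlap the miR-124 genes Mir124a-1, Mir124a-2 and Mir124a-3. Of the miRNAs printed, miR-9 at its 3 loci was the only one whose seed was shared between hosts.

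The most abundant lincRNAs included a pair of RNAs known for the sequences they carry. 2900097C17Rik is the RNA that RefSeq names Norad, which in human cells binds Pumilio proteins through repeats of the motif TGTANATA. The GENCODE M21 transcript, of 4915 bases, held 11 matches on its own strand, or 2.24 per kb, a pair of them overlapping by their flanks in a 20-base window. Of the other 108 lincRNAs the densest, Gm48623, held 0.996 per kb, no other transcript held more than 4, and 70 of the 109 held none. Of the 11 matches, 4 are shown with 6 bases on either side and the motif in capitals.
2900097C17Rik, bases 645 to 664: gtcctgTGTATATAatatga
2900097C17Rik, bases 1141 to 1160: acatgcTGTAAATAcctttt
2900097C17Rik, bases 1330 to 1349: tttcttTGTACATAgtgtat
2900097C17Rik, bases 1517 to 1536: ctgctgTGTATATAgtggac

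1700020I14Rik is Cyrano (Oip5os1 in RefSeq), which in mouse brain triggers the destruction of miR-7 through a site paired with almost the whole microRNA. Its transcript of 8300 bases held 2 matches to the miR-7a-5p seed, shown here with the seed match in capitals below the microRNA. A seed match on its own was common, occurring in 30 of the 109 lincRNAs. Upstream of the seed match at bases 2934 to 2959 lay an unbroken run of 13 bases complementary to the microRNA. At the match at 744 to 769 the longest such run was 3 bases. The bases caat stood between the run of 13 and its seed match, so the complementarity was not continuous.
miR-7a-5p: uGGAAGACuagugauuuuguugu
1700020I14Rik, bases 2934 to 2959: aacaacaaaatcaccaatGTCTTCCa
1700020I14Rik, bases 744 to 769: tcaggttttttttttaatGTCTTCCa

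The libraries held 16794642 to 18609419 counts in cKO and 16861496 to 19190101 in Ctrl. Ythdf2, the targeted gene, stood at 56.7, 56.4 and 54.4 CPM (counts scaled to 1e6 per library, with TMM factors) in cKO replicates 1 to 3, against 37.8, 68.5 and 68.3 in Ctrl. The library labelled Ctrl 1 therefore held less Ythdf2 than every cKO library, which goes against its label, and the log2 fold change was -0.06 (adjusted p = 0.882; exact two-sided permutation p = 1.0, where 0.1 is the smallest possible). Without that library it was -0.29 (adjusted p = 0.00951). Counts over a whole gene may include exons outside a deleted part. The granule cell marker Prox1 averaged 519 ± 18.7 CPM in cKO and 535 ± 23.3 CPM in Ctrl (SD, n = 3 each), and choroid plexus markers summed to 25.1 to 27.3 CPM in cKO and 23.5 to 27.8 CPM in Ctrl. Mitochondrial genes took 4.21% to 4.44% of the counts in cKO and 4.6% to 5.19% in Ctrl, highest in the library labelled Ctrl 1.

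In the dentate gyrus the 109 lincRNAs together took a small and steady share of the reads. The share was 0.341%, 0.345% and 0.345% in the cKO libraries and 0.332%, 0.339% and 0.34% in the Ctrl libraries. All cKO values lay above all Ctrl values, and no test was made of this sum. All 109 had counts in every library. Their spread between libraries of a group was low, with a median coefficient of variation of 6.96% in cKO and 8.77% in Ctrl.

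Levels per unit of length spanned a wide range. The median lincRNA had 4.07 FPKM (reads scaled by gene length and library size, mean of 6 libraries), the lowest 1.06 and the highest 159, and 17 exceeded 10 FPKM. The protein-coding genes tested had a median of 5.94 FPKM. Norad (2900097C17Rik) led with 159 FPKM, followed by 6330403K07Rik with 71.3, Cyrano (1700020I14Rik) with 52.8, Mir124a-1hg with 50.6 and Gm10076 with 37.5. The next in order were Gm3764 with 22.9 FPKM, Gm10419 with 19.4, C130071C03Rik with 15.1, C78859 with 15 and Gm27032 with 14. Of these 10, 4 are microRNA hosts of the miR-124 or miR-9 families and another, C78859, holds miR-138-2.

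Near-identical copies elsewhere in the genome make some of these levels uncertain. Norad shares 2537 bases at 99.2% identity with Gm7292, and Gm10076 shares 383 of its 384 bases at 99.5% with Rpl41, which encodes a ribosomal protein. Gm42047, B230217O12Rik and Gm26809 also match another locus over at least 150 bases at 98% identity or more. The treatment of reads that fit several loci was likewise not given.

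Norad and Cyrano differed little between the groups. Norad counted 783, 755 and 781 CPM in cKO and 834, 773 and 783 CPM in Ctrl. The groups overlapped, and the log2 fold change was -0.04 ± 0.04 (SE; adjusted p = 0.62). Cyrano counted 415, 432 and 426 CPM in cKO and 459, 462 and 447 CPM in Ctrl. All its cKO values lay below all its Ctrl values, but the difference of -0.10 ± 0.04 on the log2 scale did not pass the test over all genes (adjusted p = 0.15). This pair of RNAs supplied 34.3% to 35.1% of the 109 lincRNAs' counts in cKO and 36.4% to 38.7% in Ctrl. Without them the others took 0.221%, 0.227% and 0.225% of the library in cKO and 0.203%, 0.215% and 0.216% in Ctrl.

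**Figure D1:**
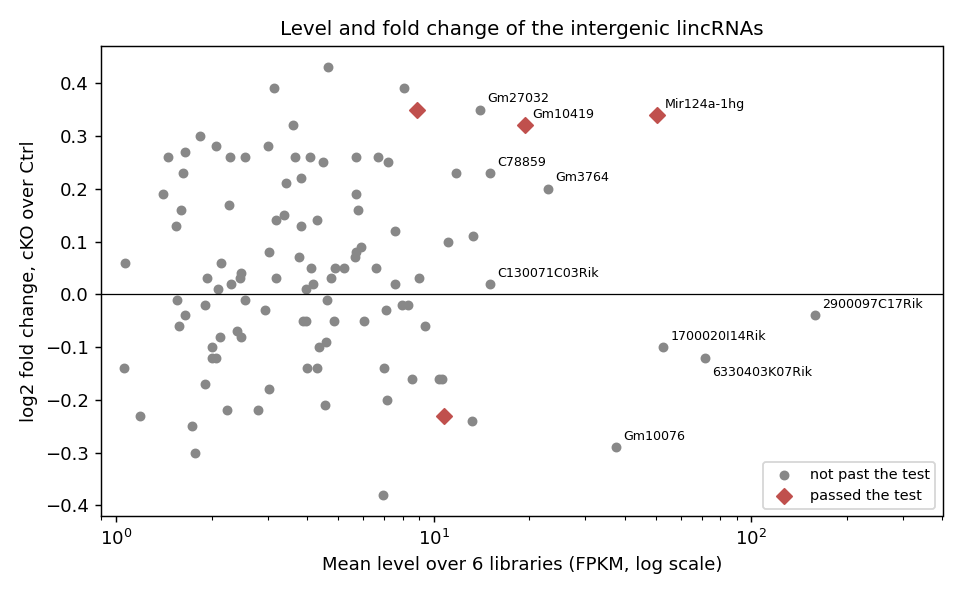
Mean level over 6 libraries (FPKM, log scale) against log2 fold change of cKO over Ctrl for each of the 109 lincRNAs, with red diamonds for the 4 that passed the test and names for the 10 highest levels. The 3 that rose and the 1 that fell lie between 8.88 and 50.6 FPKM, and Norad (2900097C17Rik) and Cyrano (1700020I14Rik) lie near 0.

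Of the 109 lincRNAs, 3 rose and 1 fell in cKO. Those that rose were Mir124a-1hg, a primary transcript of the neuronal microRNA miR-124, Gm10419, which has no assigned function, and Snhg20, named as a small nucleolar RNA host gene. Dbpht2, whose product RefSeq lists as a protein, fell. The changes were small, between 1.25-fold and 1.28-fold for those that rose and 0.853-fold for Dbpht2. The comparison was made with edgeR's quasi-likelihood test on counts with Benjamini-Hochberg adjustment over all 16928 genes tested, and calls are at an adjusted p under 0.05. These are the adjusted p-values given throughout.

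The 4 calls make 3.67% of the lincRNAs, against 3.95% of all genes tested. By direction, 2.75% of the lincRNAs rose, against 3.07% of all genes, and 0.917% fell, against 0.874%. The share called was thus close to the background in both directions. Among all genes with a mean of at least 100 counts, 5.51% were called. All 109 passed the filter on low counts. Without cKO 2 or without cKO 3, 2 of the 109 were called, where 2.46% and 1.21% of all genes were. With offsets for GC content and gene length 2 were called (2.55% of all genes), and without the filter on low counts 9 were (3.73% of all genes).

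Mir124a-1hg (ENSMUSG00000097545, chr14:64587331-64593961, plus strand, GRCm38) counted 261, 281 and 276 CPM in cKO and 194, 225 and 227 CPM in Ctrl. Its lowest cKO value exceeded its highest Ctrl value, and the library labelled Ctrl 1 was the lowest of all. The log2 fold change was 0.34 ± 0.06 (SE; adjusted p = 0.00366), and the means were 273 ± 10.4 CPM in cKO and 215 ± 18.7 CPM in Ctrl (SD, n = 3 each). Gm10419 (ENSMUSG00000072769, chr5:108367769-108378239, plus strand) counted 141, 151 and 153 CPM in cKO and 114, 118 and 125 CPM in Ctrl. Here too the groups were apart, with a log2 fold change of 0.32 ± 0.05 (adjusted p = 0.00247). The protein-coding Gm42517 overlaps its start on the opposite strand and counted 48.7, 52.7 and 48.6 CPM in cKO and 49.1, 50.6 and 50.3 CPM in Ctrl (log2 fold change -0.00 ± 0.06, adjusted p = 0.999).

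Snhg20 (ENSMUSG00000086859, chr11:117076790-117078955, plus strand) counted 20.8, 20.8 and 23.3 CPM in cKO and 15.6, 18.5 and 16.8 CPM in Ctrl. The groups did not overlap, and the log2 fold change was 0.35 ± 0.09 (adjusted p = 0.0394). Dbpht2 (ENSMUSG00000029878, chr12:74296668-74302008, plus strand) counted 54.5, 50.9 and 53.8 CPM in cKO and 59.5, 62.1 and 65.1 CPM in Ctrl. Every cKO value was below every Ctrl value, and the log2 fold change was -0.23 ± 0.06 (adjusted p = 0.0352). Mir124a-1hg and Snhg20 overlap only the small RNA genes inside them, and Dbpht2 overlaps no other entry. The call of Snhg20 was lost when cKO 1, cKO 2, cKO 3, the library labelled Ctrl 1 or Ctrl 3 was left out (adjusted p = 0.0671, 0.0661, 0.201, 0.114 and 0.0988, in that order). The call of Dbpht2 was lost without cKO 1, cKO 2, cKO 3, Ctrl 2 or Ctrl 3 (adjusted p = 0.0652, 0.128, 0.117, 0.0816 and 0.12), and both were lost with offsets for GC content and gene length (adjusted p = 0.0657 for Snhg20 and 0.0888 for Dbpht2). Mir124a-1hg and Gm10419 passed with every library left out in turn, but Mir124a-1hg missed in limma's trend test on log2(FPKM + 0.1) and log2(FPKM + 1) (adjusted p = 0.0633 and 0.0638) and Gm10419 in that on log2(FPKM + 1) (adjusted p = 0.0507).

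**Figure D2:**
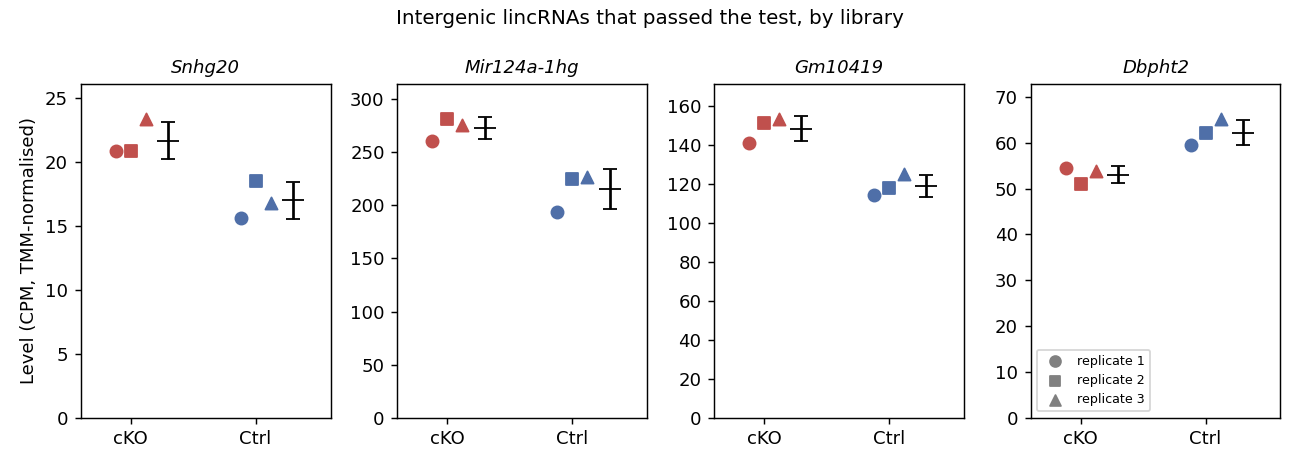
Level of the 4 lincRNAs that passed the test (CPM, TMM-scaled, axes from 0), with 1 point per library, the marker shape giving the replicate number and the black bars the group mean ± SD (n = 3). In Snhg20, Mir124a-1hg and Gm10419 every cKO point lies above every Ctrl point, and in Dbpht2 every cKO point lies below.

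Markers of some other cells in the tissue were lower in the same comparison, in which 0.874% of all genes tested fell. Of 11 microglia markers tested, 11 were lower in cKO and 5 of them passed the test, with a median log2 fold change of -0.24 and a summed level of 363 to 385 CPM in cKO and 420 to 457 CPM in Ctrl. Of 12 astrocyte markers 3 fell, with a median of -0.14 and a sum of 5930 to 5940 CPM in cKO and 6330 to 6510 CPM in Ctrl. Of 10 immature neuron and progenitor markers 7 were negative and none passed edgeR's test, with a median of -0.13 and a sum of 262 to 267 CPM in cKO and 278 to 293 CPM in Ctrl. All 5 blood cell markers tested were negative and none passed, with a median of -0.64 and overlapping sums of 10.9 to 28.3 CPM in cKO and 15.2 to 34.4 CPM in Ctrl. Of 16 granule cell markers 1 rose and 1 fell, with a median of -0.04. No marker of these 5 lists was at 0 in all libraries. The other lists had medians of -0.01 (mossy and pyramidal neurons, oligodendrocyte lineage), 0.05 (interneurons, choroid plexus) and 0.06 (endothelial and mural cells). There, 2 of 10 interneuron markers and 4 of 12 endothelial and mural markers were negative, against 7 of 14 mossy and pyramidal markers and 6 of 12 oligodendrocyte markers. In bulk tissue, fewer cells of a type and less RNA per cell cannot be told apart, and the part of these shifts in the lincRNA values was not tested.

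The fold changes of the 109 lincRNAs lay on both sides of 0. The median log2 fold change of all 109 was 0.03, against -0.00 over all genes tested, and 63 were positive and 46 negative. The range ran from -0.38 to 0.43, and none differed by more than 0.5. The median size of the log2 fold change, whatever its sign, was 0.14, against 0.11 over all genes tested and 0.08 over those with a mean of at least 100 counts. An unadjusted p under 0.05 was reached by 24 of them, 16 higher and 8 lower in cKO, which is 22.0%, against 17.6% of all genes tested. The CPM ranges of the groups did not overlap for 30 lincRNAs, which is 27.5%, against 22.9% of all genes tested. Of these 30, 21 were higher in cKO and 9 lower, where 12.5% of all genes were higher and 10.5% lower. Among all genes with a mean of at least 100 counts, whose median mean count was 661 against 192 for the lincRNAs, 27.3% did not overlap and 22.0% had an unadjusted p under 0.05.

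**Figure D3:**
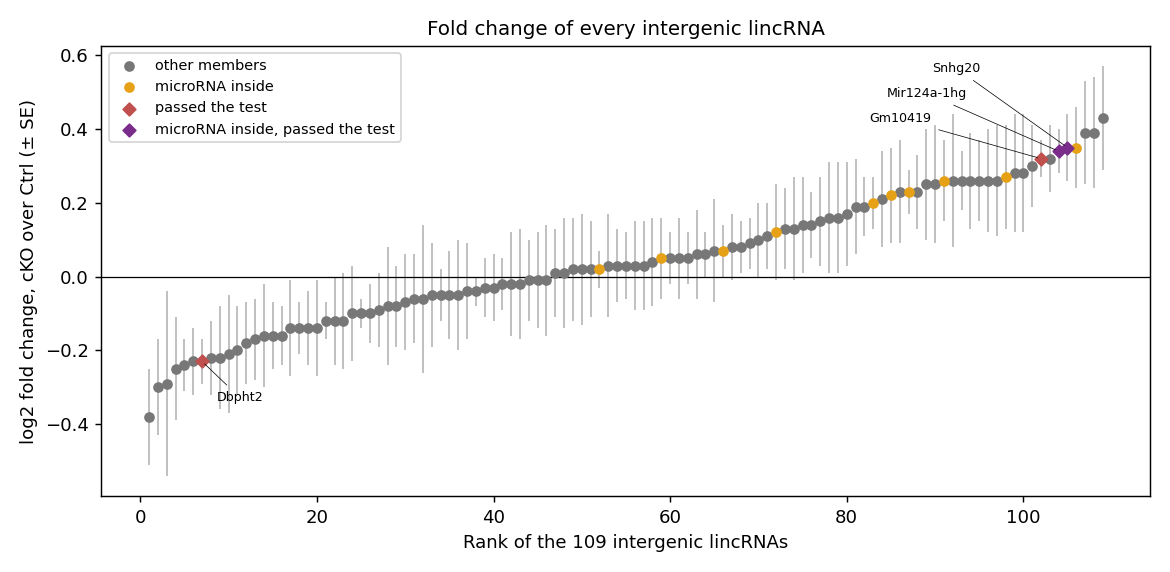
Log2 fold change of cKO over Ctrl with its standard error (grey bars) for the 109 lincRNAs in rank order, with the 12 hosts of Mir-named microRNAs in orange or purple and the 4 that passed the test as diamonds. The 12 hosts all lie above 0, and Dbpht2 is the single diamond below it.

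Of the lincRNAs that missed the test, Gm45869, which had the highest fold change, counted 8.8, 9.42 and 9.25 CPM in cKO and 5.42, 7.16 and 7.72 CPM in Ctrl, without overlap (log2 fold change 0.43 ± 0.14, adjusted p = 0.108). Gm48604 (0.39 ± 0.14, adjusted p = 0.146), Gm16267 (0.39 ± 0.15, 0.189), Gm27032 (0.35 ± 0.11, 0.0812) and AI480526 (0.32 ± 0.09, 0.0712) followed, and in none of these did the groups overlap either. AI480526 overlaps Gm38102 on the opposite strand, which had 0.28. At the other end M5C1000I18Rik counted 9.75, 10.4 and 7.47 CPM in cKO and 11, 13.3 and 11.5 CPM in Ctrl (log2 fold change -0.38 ± 0.13, adjusted p = 0.142). 1700001L05Rik (-0.30 ± 0.13, adjusted p = 0.267) overlapped between the groups, and 5930430L01Rik (-0.25 ± 0.14, 0.401) and B230209E15Rik (-0.24 ± 0.07, 0.0781) did not.

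Gm10076 had the largest spread in Ctrl of the 109, and its value rested on single libraries. It counted 12.1, 14.5 and 12.5 CPM in cKO and 7.86, 22.8 and 16.9 CPM in Ctrl. The Ctrl libraries alone ranged from below to above all cKO libraries, with a coefficient of variation of 47.5%, against 9.75% in cKO. The log2 fold change was -0.29 ± 0.25 (adjusted p = 0.602). It was -0.60 (adjusted p = 0.0175) without the library labelled Ctrl 1 and 0.05 (adjusted p = 0.94) without Ctrl 2.

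The 12 hosts of a microRNA with a Mir name all had positive log2 fold changes. That held under each alternative scaling, filter, test and left-out library, where the smallest (6720427I07Rik without cKO 1 and C130071C03Rik without Ctrl 2) rounded to 0.00. The values lay between 0.02 and 0.35 with a median of 0.23, 2 of the 12 rose by the test (Mir124a-1hg and Snhg20), and in 8 of the 12 the groups did not overlap. Over all genes tested 3.95% were called and 22.9% did not overlap. The number of hosts called was 0 in the limma trend tests, where 0.65% and 0.561% of all genes were called. It was 5 without the filter on low counts (3.73% of all genes). Under the other alternatives it was 1 to 4, where 1.21% to 7.75% of all genes were called. By comparison, the other 97 lincRNAs had a median of 0.02, 52.6% of them were positive, 1 rose and 1 fell, and in 22 the groups did not overlap. The hosts had more reads and a higher GC content, with a median mean count of 307 against 191 and a median GC of 50.7% against 45.6%. The part of these in the difference was not tested. Gm20754, which overlaps the microRNA entry Gm24544, is among these 97 and had -0.21 ± 0.16 (adjusted p = 0.563). The grouping by overlap with a microRNA gene was drawn up after the values had been seen, so these figures are a description and no test was made on them. Protein-coding genes with a Mir-named microRNA inside their span numbered 528 among the genes tested, of which 58.5% were positive with a median of 0.03, 46 rose and 9 fell. The 13 other lincRNAs tested that overlap a Mir-named microRNA, not among the 109, had a median of 0.13, 10 were positive and 1 rose.

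**Figure D4:**
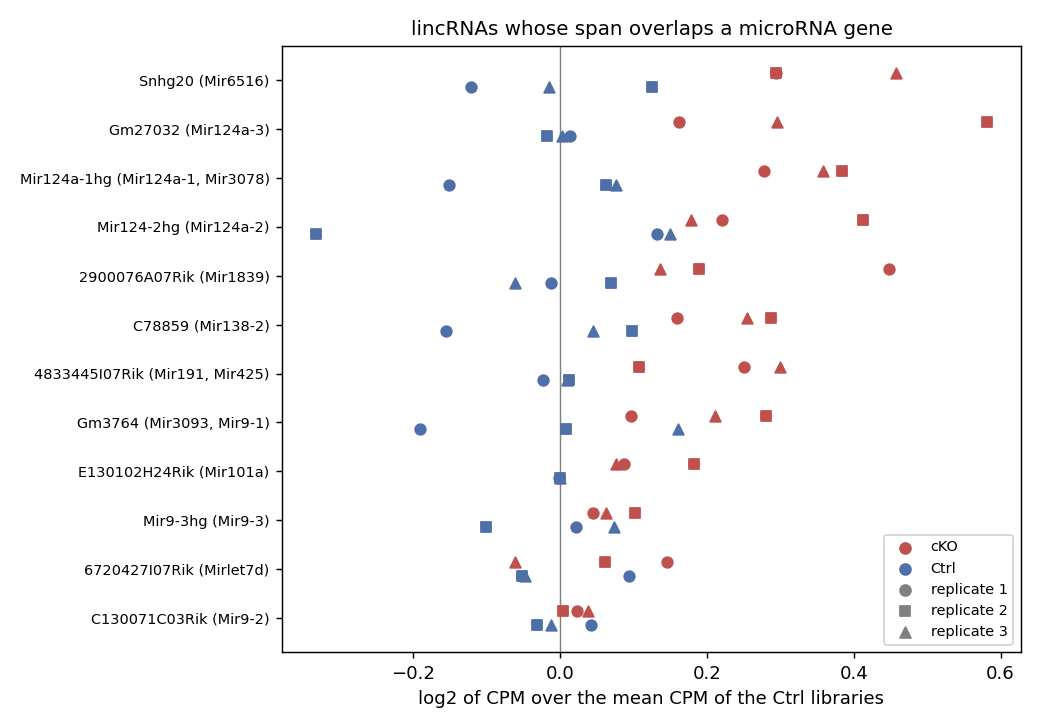
Log2 of the CPM in each library over the mean CPM of the Ctrl libraries, for the 12 lincRNAs whose span overlaps a Mir-named microRNA gene on the same strand (named in brackets), with cKO in red above Ctrl in blue and the marker shape giving the replicate number. In 8 of the 12 all red points lie to the right of all blue points, and in Gm3764, Mir9-3hg, 6720427I07Rik and C130071C03Rik the groups overlap.

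All 3 hosts of miR-124, a microRNA family abundant in neurons, had log2 fold changes above the median of the 12. Mir124a-1hg, described above, rose. Gm27032, which overlaps part of Mir124a-3, counted 15.4, 20.6 and 16.9 CPM in cKO and 13.9, 13.6 and 13.8 CPM in Ctrl (log2 fold change 0.35 ± 0.11). Mir124-2hg counted 10.5, 12 and 10.2 CPM in cKO and 9.88, 7.16 and 10 CPM in Ctrl (0.27 ± 0.14, adjusted p = 0.334). In both the groups stood apart, by a narrow gap in Mir124-2hg, and neither passed the test. Gm27032 had 0.44 (adjusted p = 0.0474) without cKO 1 and 0.23 (adjusted p = 0.289) without cKO 2. Mir124-2hg had 0.12 (adjusted p = 0.707) without Ctrl 2. Summed over the 3 hosts the level was 287, 314 and 303 CPM in cKO and 218, 246 and 251 CPM in Ctrl, with means of 301 ± 13.5 CPM in cKO and 238 ± 18.0 CPM in Ctrl (SD, n = 3 each). Mir124a-1hg gave 90.5% of the reads in this sum.

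The hosts of miR-9, a microRNA of neural progenitors and neurons, were less uniform. Gm3764, which gave 54.7% of the reads of this family, counted 133, 151 and 144 CPM in cKO and 109, 125 and 139 CPM in Ctrl. The groups overlapped, since Ctrl 3 exceeded cKO 1, and the library labelled Ctrl 1 was lowest (log2 fold change 0.20 ± 0.07, adjusted p = 0.159). It was 0.29 (adjusted p = 0.04) without Ctrl 3 and 0.11 (adjusted p = 0.396) without the library labelled Ctrl 1. C130071C03Rik counted 86.8, 85.7 and 87.7 CPM in cKO and 88.0, 83.6 and 84.7 CPM in Ctrl, a log2 fold change of 0.02 ± 0.05 (adjusted p = 0.869). Mir9-3hg averaged 25.3 ± 0.489 CPM in cKO and 24.1 ± 1.46 CPM in Ctrl (0.07 ± 0.07, adjusted p = 0.682). The sum over these 3 hosts was 244, 263 and 257 CPM in cKO and 221, 231 and 249 CPM in Ctrl, and here the groups overlapped.

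Among the remaining hosts C78859, which holds miR-138-2, came closest to the threshold. It counted 91.5, 100 and 97.8 CPM in cKO and 73.6, 87.7 and 84.5 CPM in Ctrl, without overlap (log2 fold change 0.23 ± 0.06, adjusted p = 0.0524). It was 0.28 (adjusted p = 0.0474) without Ctrl 2 and 0.16 (adjusted p = 0.139) without the library labelled Ctrl 1. C78859 also passed with DESeq2 (adjusted p = 0.0205) and without the filter on low counts (adjusted p = 0.00243). With the replicate number as a block it passed too (adjusted p = 0.0156, and 0.0213 with GC and length offsets added). It missed with the offsets alone (adjusted p = 0.0658) and in limma's trend tests (adjusted p = 0.166 and 0.167). Without the filter, SEs differed in both directions, with 0.06 against 0.15 for Ythdf2 and 0.15 against 0.13 for E130102H24Rik. 2900076A07Rik with miR-1839 had a log2 fold change of 0.26 ± 0.11 (adjusted p = 0.213; 0.16 without cKO 1), and 4833445I07Rik, a host of miR-191 and miR-425, had 0.22 ± 0.13 (adjusted p = 0.424). E130102H24Rik with miR-101a had 0.12 ± 0.13 (adjusted p = 0.696), and 6720427I07Rik with let-7d had 0.05 ± 0.11 (adjusted p = 0.873). The counts of the microRNA precursors themselves, entered separately in the table, say nothing of mature microRNAs. Mir3093, inside Gm3764, held 79 counts over all libraries and each other precursor of these hosts at most 8.

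The library labelled Ctrl 1, which had the lowest Ythdf2, was the lowest of the 6 for 36 of the 109 lincRNAs and the highest for 19. The other libraries held between 24 and 39 lowest or highest values in all, against 55 in that library. Without it, the median log2 fold change of the 12 hosts was 0.19, all 12 were still positive and 1 passed the test. Over the whole set of 109, 11 lincRNAs changed direction without it, none of which had an unadjusted p under 0.05 in all 6 libraries. That number was not exceptional, since leaving out each of the other libraries turned 7 to 13.

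The lincRNAs that host small nucleolar RNAs showed no shared direction. A list of 19 such genes had 14 tested, of which 1 rose and 9 were negative, with a median of -0.04, and 3 of the 19 are among the 109. Snhg20 rose, as given above. Its span holds Gm26083, entered as a small Cajal body RNA, and the microRNA Mir6516, but no entry labelled as a small nucleolar RNA. Snhg6, which carries Snord87, counted 12.5, 12.5 and 9.68 CPM in cKO and 14.3, 13.8 and 10.5 CPM in Ctrl (log2 fold change -0.16 ± 0.14, adjusted p = 0.609). Snhg12, which carries Snora16a, Snora44, Snora61 and Snord99, counted 12.9, 17.1 and 15.1 CPM in cKO and 15.4, 18.0 and 13.5 CPM in Ctrl (-0.06 ± 0.12, adjusted p = 0.873). In both the groups overlapped, and Snhg12 turned positive without cKO 1 (0.04) or Ctrl 2 (0.06).

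Of 22 listed lincRNAs with a described role, 13 were tested, 1 rose (Mir124a-1hg) and 6 were negative, with a median of 0.03. Besides Norad and Cyrano the 109 include Pvt1, a transcript beside the Myc oncogene, which averaged 13.6 ± 1.51 CPM in cKO and 14.7 ± 2.15 CPM in Ctrl (SD, n = 3 each; log2 fold change -0.12 ± 0.12, adjusted p = 0.678). Gm26917 averaged 16 ± 1.48 CPM in cKO and 15.7 ± 2.62 CPM in Ctrl (0.03 ± 0.12, adjusted p = 0.947), and its sign turned under some settings. A list of 14 microRNA host lincRNAs had 10 tested, of which 2 rose (Mir124a-1hg among them) and 1 was negative, with a median of 0.19. Of the 14, 4 are among the 109 and are the hosts Mir124a-1hg, Mir124-2hg, Mir9-3hg and C130071C03Rik described above, so the list is not a separate set.

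Other noncoding classes were set beside the 109 lincRNAs without a test between classes. Of 409 other lincRNAs tested, all with fewer reads or left out by the rule, 5 rose and 2 fell (1.71%), with a median log2 fold change of 0.05. Of 563 antisense transcripts tested, 12 rose and 0 fell (2.13%), with a median of 0.10, and 54 of them were higher and 9 lower at an unadjusted p under 0.05. For the 71 antisense transcripts with a mean of at least 100 counts the median was 0.07, with 3 risen and 0 fallen by edgeR's test, and 17 higher and 0 lower at an unadjusted p under 0.05.

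A lincRNA can share a promoter region with a protein-coding gene or lie within its neighbourhood. Outside the overlaps, the 109 lay a median of 8952 bases from the nearest protein-coding gene. In 31 the pair was transcribed head to head, in 41 on the same strand and in 18 tail to tail. For 94 lincRNAs the nearest gene was tested, and the paired fold changes showed little relation, with a Pearson r of 0.07 and a Spearman rho of 0.04 across the 94 pairs and the same sign in 47 of them. These pairs share libraries, and some share a neighbour. Among the 13 head-to-head pairs with starts within 1000 bases, 8 had the same sign, and r was 0.30.

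The neighbours of the 4 called lincRNAs did not pass the test. Kif13b, a kinesin gene 53304 bases from Mir124a-1hg, averaged 43.2 ± 4.59 CPM in cKO and 37.4 ± 2.19 CPM in Ctrl (SD, n = 3 each; log2 fold change 0.21 ± 0.08, adjusted p = 0.167). It was 0.12 (adjusted p = 0.543) without cKO 3. Sec14l1, 36213 bases from Snhg20, averaged 331 ± 5.55 CPM in cKO and 310 ± 9.66 CPM in Ctrl (0.10 ± 0.04, adjusted p = 0.214; 0.03 with offsets for GC content and gene length). Gm11042, 13102 bases from Dbpht2, had too few counts to be tested.

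Of the 91 distinct neighbours tested, 2 passed the test, both named after their values were seen. Among all protein-coding genes tested 4.4% passed, and among all genes 3.95%. Polg, which encodes the mitochondrial DNA polymerase, lies 33664 bases from Mir9-3hg. Polg rose to 106 ± 3.5 CPM in cKO, against 87.2 ± 1.33 CPM in Ctrl (log2 fold change 0.28 ± 0.05, adjusted p = 0.00376), while Mir9-3hg had 0.07. Ndn, an imprinted gene on chromosome 7, fell to 169 ± 0.987 CPM in cKO, against 191 ± 9.3 CPM in Ctrl (-0.17 ± 0.04, adjusted p = 0.0459). Its call was lost without the library labelled Ctrl 1 (adjusted p = 0.116) and with offsets for GC content and gene length (adjusted p = 0.132). Ndn is the nearest protein-coding gene to 3 of the lincRNAs, though far from them. It lies 731242 bases from B230209E15Rik, 417879 from A230057D06Rik and 137090 from Gm9801. B230209E15Rik counted 22.1, 20.9 and 20.6 CPM in cKO and 25.5, 24.4 and 25.2 CPM in Ctrl. A230057D06Rik (ENSMUSG00000109394, 1 of 3 entries with that name) and Gm9801 had values of opposite sign, 0.14 ± 0.09 (adjusted p = 0.428) and 0.13 ± 0.11 (adjusted p = 0.604).

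**Figure D5:**
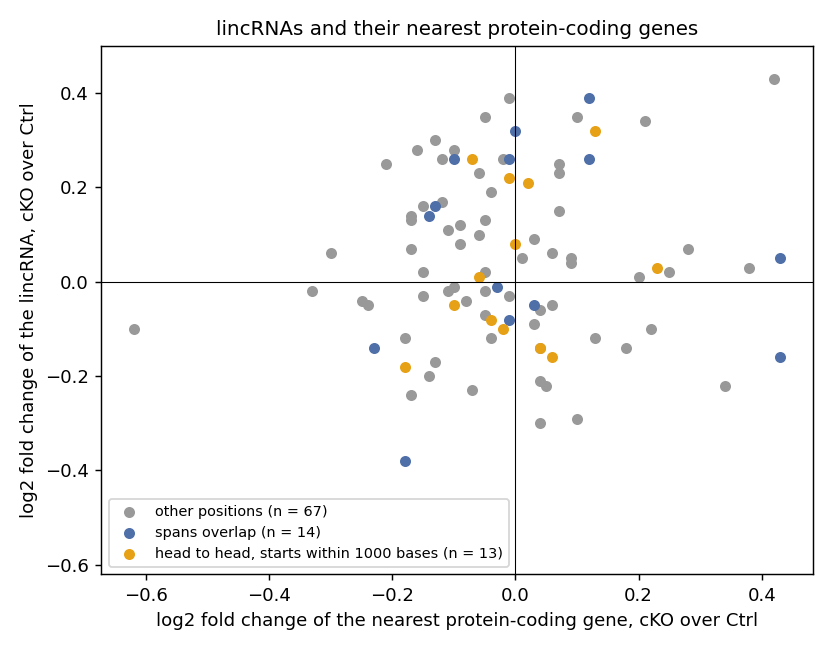
Log2 fold change of the nearest protein-coding gene (horizontal) against that of the lincRNA (vertical), cKO over Ctrl, for the 94 lincRNAs with a tested neighbour, coloured by position. The points scatter over all 4 quadrants, with the same sign in 47 of 94 pairs, and 8 of the 13 head-to-head pairs fall on the same side of 0.

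Sequence features of the lincRNAs were only weakly correlated with the fold change. The median gene length in the table was 3556 bases, and 20 lincRNAs had a single exon. The median GC content was 45.9%, from 34.1% to 69.1%, against 49.4% over all genes tested with a transcript. Across the 109, GC content and fold change had a Pearson r of 0.14 and a Spearman rho of 0.15. With offsets for GC content and length rho was -0.01. The offsets are fitted to remove a trend with GC content, so this value is no separate finding. The letters GGACT, one form of the motif in which m6A is placed, were counted on the transcript strand. The median was 0.897 per kb in the lincRNAs and 1.01 per kb over all genes tested, and 15 of the 109 held none. Across the 109 the density had a Spearman rho of -0.03 with the fold change and of 0.31 with GC content. The letters mark no measured methylation.

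Of the called lincRNAs, Mir124a-1hg held 7 GGACT (1.71 per kb), Snhg20 held 6 (2.79 per kb), Gm10419 held 2 (0.493 per kb) and Dbpht2 held 2 (0.374 per kb). Norad held 0 and Cyrano 8 (0.964 per kb). 6330403K07Rik, with 6 motifs and 4.02 per kb, had a log2 fold change of -0.12 ± 0.05 (adjusted p = 0.188).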

How the data were processed

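RNA-seq of dentate gyrus gave 6 libraries, grouped as cKO or Ctrl by their titles. RNA was prepared with Trizol and sequenced after library preparation with the NEBNext Ultra RNA kit, per the labels' protocols. The authors deposited raw gene counts and FPKM values for 54040 entries. The tools named are featureCounts 1.5.0-p3, StringTie 1.3.3b and HISAT2 2.0.5, with the GRCm38 build, per the submitters' processing notes. The annotation release, strand setting and handling of reads that fit several loci were not given in the sources used here. Per the file headers, each value column names its library, and 0 columns of per-sample values were left unused.

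Counts were tested in R 4.3.3 with edgeR 4.0.16 over the whole table. filterByExpr by group (minimum count 10, minimum total count 15) kept 16928 genes. The quasi-likelihood F test compared the groups after TMM scaling, with no other term, and p-values were Benjamini-Hochberg adjusted over all tested genes. SE is the log2 fold change divided by the root of F. The common biological coefficient of variation was 5.67%. Replicates differed by more than sampling noise (chi-square over degrees of freedom 2.707 to 4.704, genes of 20 or more summed counts), so none was a duplicate. The edgeR test was checked on simulated data. Correlations across lincRNAs are descriptions.

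The lincRNAs and the lists (3 lincRNA role lists and 10 lists of cell type markers) were chosen with earlier results of these data known. Named lincRNAs are those called, the 5 largest and 5 smallest fold changes among the rest, the 10 highest in FPKM, the role lists, those at the edge of the rule and the neighbours of called ones. Other microRNA hosts and lincRNAs with near copies were named after their values were seen. So were Tmem250-ps, Gm48623, Gm38102, Gm20754, Polg, Ndn and the lincRNAs whose nearest protein-coding gene is Ndn. Transcript features came from GENCODE M21, and copies were matches of at least 150 bases at 98% identity or more. Alternatives were DESeq2 1.42.0, upper-quartile or RLE scaling, limma 3.58.1 (voom, and trend on log2 of FPKM plus 0.1 or 1), no low-count filter, at least 1 CPM in 3 libraries, GC and length offsets (loess span 0.3), the replicate number as a block, each library left out, and lincRNAs that overlap no other entry. Of the marker lists whose calls are not given above, mossy and pyramidal neuron markers had 2 risen and 0 fallen of 14 by edgeR's test. Interneuron (10), oligodendrocyte lineage (12), endothelial and mural (12) and choroid plexus (3) markers, with the number tested in brackets, had 0 called.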

Additional observations from a re-analysis of the deposited data

How the results depend on the processing

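Of 109 lincRNAs, 4 passed the test, and RLE or upper-quartile scaling, limma-voom and a filter of 1 CPM gave counts within 1.5 times of that. DESeq2 gave 5, where 7.75% of all genes with an adjusted p passed. Without the low-count filter 9 passed (8 rose; 3.73% of all genes). With GC and length offsets 2 passed and 0 fell (2.55% of all genes), with a median log2 fold change of 0.06. limma-trend gave 1 on log2(FPKM + 0.1), which rose, with 0 fallen, and 0 on log2(FPKM + 1) (21 had an unadjusted p under 0.05), where 0.65% and 0.561% of all genes passed. Among the 50 lincRNAs that overlap no other entry 1 passed (0 rose), with a median of 0.01. Leaving out each library gave 2 to 4 calls (1.21% to 3.09% of all genes), with 0 to 2 fallen and 2 without cKO 2 or cKO 3, and medians of 0.03 to 0.05. Libraries of the same replicate number correlated at 0.0914, 0.018 and 0.00846 in their deviations from the group means. Those of unlike numbers correlated at -0.054 to 0.0375. Not every library correlated best with its own number, and whether equal numbers share a batch was not tested. With the replicate number as a block, 7 passed (6 rose; 4.77% of all genes), and with the block and GC and length offsets 3 passed and 0 fell (3.23%), with a median of 0.06. Mir124a-1hg lost its call in both limma-trend fits (adjusted p = 0.0633 and 0.0638) and Gm10419 in that on log2(FPKM + 1) (0.0507). Signs turned for Gm26917 with GC and length offsets (-0.06, with the block -0.05) and with a library left out (-0.11 to 0.10), Snhg12 (-0.16 to 0.06), Gm10076 (-0.60 to 0.05), Gm42517 (-0.04 to 0.02) and Ythdf2 (-0.29 to 0.07) with a library left out. Except where fewer genes or samples enter by construction, the cause was not tested. The summed share, cKO over Ctrl, was 1.02 with either denominator. The median lincRNA had a mean of 192 counts, and this depth with 3 libraries a group limits which small differences could be detected.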
